A study of Rattus norvegicus with 4 samples.

Results

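The genes described here encode subunits of the NMDA receptor: Grin1, Grin2a, Grin2b, Grin2c, Grin2d and Grin3a. They are 6 of the 720 genes that the platform annotation names on the array, chosen by symbol, and 14 of the 1322 probe sets in the deposited table carry one of these symbols: 4 for Grin1, 2 for Grin2a, 1 for Grin2b, 2 for Grin2c, 2 for Grin2d and 3 for Grin3a. All 14 led to the same symbol through their gene identifier in RefSeq. A probe set is a group of short probes on an Affymetrix array whose signals are combined into 1 intensity, here in arbitrary units on a linear scale.

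The arrays were hybridized with RNA of primary cortical neurons, prepared from rats at embryonic day 17 and grown for 14 days in Neurobasal medium with the B27 supplement. Control cultures received phosphate-buffered saline (PBS) for 4 h and the others 25 mM KCl for 4 h, which depolarizes the cell membrane. Each group had 2 arrays, which keep the names in their titles: control 1, control 2, KCl 1 and KCl 2. One label describes all 4 samples as non-activated, against the titles and treatment protocols that define the groups. No label states that arrays of one group had RNA of different cultures, and p-values therefore reflect the spread between arrays, which may be purely technical.

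The NMDA receptor is a glutamate-gated cation channel that opens fully only when the membrane is depolarized, since magnesium ions otherwise block its pore, and it admits calcium. Every receptor contains GluN1, the product of Grin1, which binds the co-agonist glycine or D-serine. It is joined by GluN2 subunits, which bind glutamate and set the channel's kinetics, or by GluN3 subunits, which bind glycine and lower calcium entry and magnesium block. In the forebrain GluN2B and GluN2D are prominent early in development, GluN2A gains ground as synapses mature, and GluN2C is best known from the cerebellum. The shift from GluN2B to GluN2A is known to be influenced by neuronal activity, and the comparison with KCl asks what a depolarization of a few hours does to the transcripts.

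The cultures carried neuronal transcripts and a depolarization response. Of 13 neuron markers, 9 had a probe set and none of these lay within background, and their summed intensity ran from 32421 to 33721 in controls and from 30836 to 31445 after KCl. Of these 9, Snap25, a gene of vesicle fusion, passed as higher on 1 of its 4 probe sets (log2 change 0.43 ± 0.10, limma adjusted p = 0.032). Its other probe sets had log2 changes of 0.27, 0.32 and 0.26 and did not pass. The other 8 markers did not pass, among them Syp, the synaptophysin gene, at −0.29 ± 0.10 (limma adjusted p = 0.12). Background means the highest intensity of 19 probe sets for bacterial and yeast transcripts, 73.7. All 10 tested genes of a depolarization response list rose, among them the immediate-early gene Fos. Of all 570 genes with a tested probe set, 29 passed as higher and 29 as lower. This list and the marker lists were chosen with earlier results of these data known. Astrocyte markers rose too: of 7 with a probe set among 10 listed, 6 rose and none fell, their summed intensity was 5220 and 5484 at its lowest and highest in controls and 9974 and 12551 after KCl, and Slc1a2 lay within background. Of the oligodendrocyte, microglial and immune, and endothelial and fibroblast markers, 5, 2 and 1 were tested and none passed in limma. At an unadjusted p below 0.05 in limma there were 0, 0 and 1, against 25.4% of the 570 genes. An ordinary t statistic gave the same counts, and the share of the 570 genes by that statistic is not given here. Mog, Pdgfra, Mbp, Itgam and Ccl2 lay within background. No marker was listed at 0.

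No probe set of an NMDA receptor subunit gene passed the test of KCl against control. The dimmest 25% of probe sets were not tested, which removed 2 of the 14 (Grin1 S39221_at and Grin2a D13211_s_at), and of the 12 tested 0 passed at a limma adjusted p below 0.05, against 10.8% of all 947 probe sets tested (5.49% higher and 5.28% lower after KCl). At an unadjusted p below 0.05, limma called 1 of the 12, Grin1 U11418_s_at, against 25.6% of all probe sets. An ordinary t statistic called 0 of the 12. The share of all probe sets by that statistic is not given here, so this count has nothing to be set against. The values of the 12 moved in both directions, with 7 log2 changes above 0 and 5 below. Their median was 0.08, beside −0.10 over all probe sets tested, and the median size was 0.21, beside 0.29. The KCl and control arrays did not overlap for 6 of the 12, against 58.0% of all probe sets. KCl lay above control in 4 of them and below in 2, against 21.4% and 36.5% of all. In bulk RNA a change in the share of cells that use a gene and a change in RNA per cell cannot be told apart. The rise of astrocyte markers on the same arrays was not tested for its part in any value below.

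**Figure D1:**
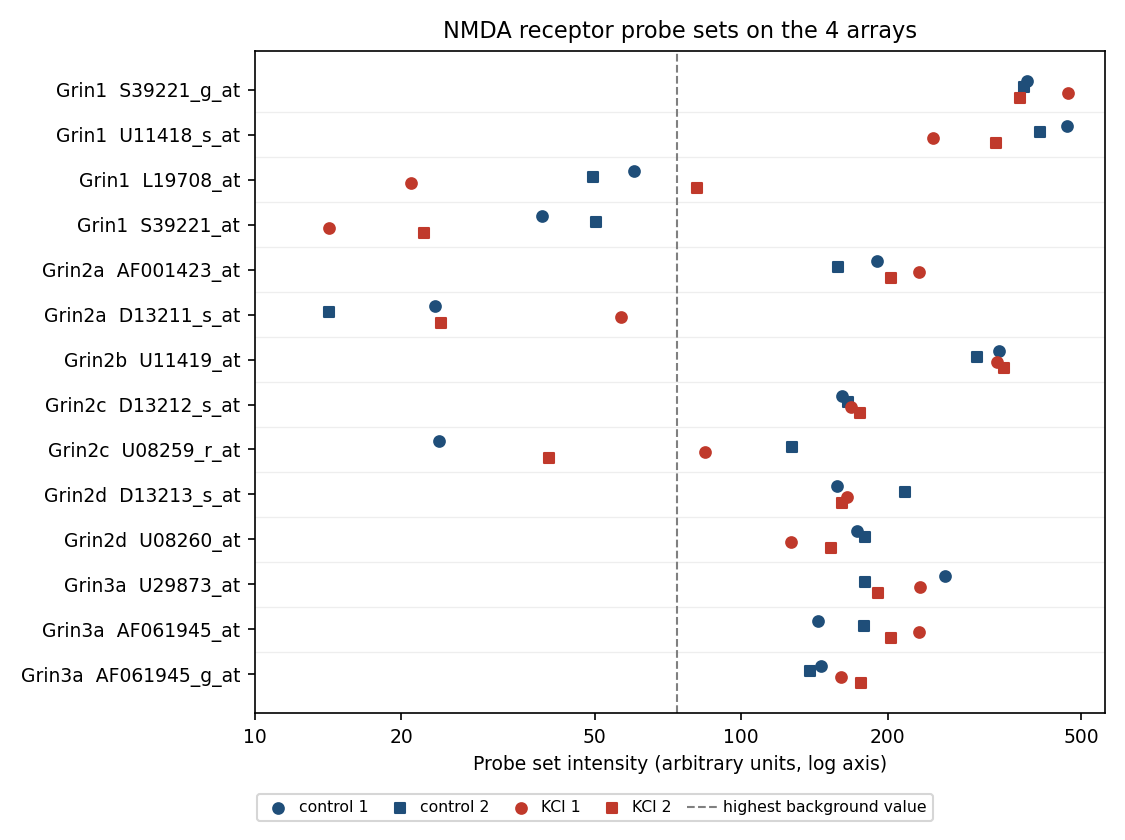
Intensity of the 14 NMDA receptor probe sets on each array, on a log axis in arbitrary units, with control arrays in blue, KCl arrays in red and the highest background value of 73.7 as a dashed line. For 10 probe sets all 4 points lie above the line. Control and KCl points do not overlap for 6 of the 12 tested probe sets.

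Grin1 encodes the subunit that every NMDA receptor needs, and its probe sets gave unlike values. The brightest, S39221_g_at, read 387 and 381 in controls and 469 and 374 after KCl. KCl 1 was the highest of the 4 and KCl 2 the lowest, so the groups overlapped. The log2 change was 0.13 ± 0.16 (SE; limma adjusted p = 0.68), a KCl to control ratio of 1.09 with a 95% interval from 0.840 to 1.42. Without KCl 1 the log2 change was −0.04.

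The next brightest, U11418_s_at, read 468 and 412 in controls and 247 and 335 after KCl. Both KCl arrays lay below both control arrays. The ratio of geometric means was 1.53-fold lower after KCl, with a log2 change of −0.61 ± 0.19 (limma adjusted p = 0.080, unadjusted p = 0.011), and 134 of the 947 probe sets had a smaller p. It thus missed the threshold. An unadjusted limma p below 0.05 goes with a 95% interval that does not include 0, and 25.6% of all tested probe sets had such a p. For U11418_s_at the interval of the log2 change ran from −1.04 to −0.18. Its size depended on KCl 1: without that array the log2 change was −0.39 (adjusted p = 0.24), and without KCl 2 it was −0.83 (adjusted p = 0.0010). In both of these fits KCl is a lone array, taken to vary like the controls. Their p holds no spread between KCl arrays, since limma took the spread from the controls and the trend over all tested probe sets. Over 12 alternatives the adjusted p ran from 0.0010 to 0.38 and the log2 change stayed below 0.

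The other Grin1 probe sets were near background. L19708_at read 60.3 and 49.5 in controls and 20.9 and 81.0 after KCl, so that the KCl arrays held both its lowest and its highest value (log2 change −0.41 ± 0.66; limma adjusted p = 0.74). Without KCl 1 the log2 change was 0.57. S39221_at, which was too dim to be tested, read 38.9 and 50.2 in controls and 14.2 and 22.3 after KCl. All 4 values are within background, and its log2 change of −1.31 ± 0.48 comes from the fit without the filter on dim probe sets (limma adjusted p = 0.19). It shares the source sequence in its name with S39221_g_at.

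The unlike changes of the Grin1 probe sets were compared within each array, where differences in overall brightness cancel. The log2 intensity of S39221_g_at minus that of U11418_s_at was −0.27 and −0.11 in controls, against 0.92 and 0.16 after KCl. The groups did not overlap, and the difference was higher by 0.74 after KCl, with SDs of 0.11 in controls and 0.54 after KCl (n = 2 arrays each; two-sided exact permutation p = 0.33). This p is the smallest that 2 against 2 arrays can give, so no comparison of this kind could pass at 0.05. Leaving out 1 array at a time gave values between 0.35 and 1.12, lowest without KCl 1.

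Against S39221_at the same difference was 3.31 and 2.92 in controls and 5.05 and 4.07 after KCl, higher by 1.44 (exact permutation p = 0.33), with S39221_at within background. Against L19708_at it was 2.68 and 2.94 in controls and 4.49 and 2.21 after KCl. Here the groups overlapped (mean shift 0.53, exact permutation p = 1.0), and without KCl 1 the shift was −0.61. KCl 1 gave the largest difference in all 3 comparisons. The Grin1 transcript is known to be alternatively spliced near both ends of its coding sequence, and the sources used here do not state which part of it each probe set covers.

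The 250 bases before the annotated start of Grin1 are shown as a description of a gene whose probe sets gave unlike values, as did those of Grin3a. The stretch belongs to the gene and not to a single probe set, so it says nothing about how the probe sets differ. The AP-1 motif TGANTCA was searched because the Fos and Jun genes, whose products bind it, rose on the same arrays. A link between them and Grin1 was not tested. RefSeq's table for build GRCr8 matched 4 of the 6 genes (Grin1, Grin2c, Grin2d and Grin3a). The Grin1 stretch is chr3:28528755-28529004 on the minus strand, printed 5′ to 3′ with the 2 matches to TGACG, the core of the cAMP response element, in capitals:
Grin1: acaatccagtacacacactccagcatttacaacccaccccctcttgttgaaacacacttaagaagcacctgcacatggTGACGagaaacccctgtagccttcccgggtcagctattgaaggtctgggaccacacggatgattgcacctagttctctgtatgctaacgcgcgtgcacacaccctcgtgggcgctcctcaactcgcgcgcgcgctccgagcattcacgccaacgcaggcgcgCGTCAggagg
The first match is on the printed strand and the second, CGTCA, on the other. Both strands were searched, and 18.2% of 33469 such stretches hold TGACG, which is also part of the full element TGACGTCA. Grin2c, Grin2d and Grin3a had 0 matches to TGACG. None of the 4 stretches held TGACGTCA, TGANTCA or the GC box GGGCGG, which 1.59%, 6.34% and 30.5% of all stretches hold. A match or its absence in this window describes the letters only.

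Grin2a and Grin2b encode the main GluN2 subunits of the forebrain. The brighter Grin2a probe set, AF001423_at, read 190 and 158 in controls and 232 and 203 after KCl. Both KCl arrays lay above both control arrays, and the gap between the groups, from 190 to 203, was smaller than the spread within either group. The log2 change was 0.33 ± 0.21 (limma adjusted p = 0.36), a ratio of 1.25 with a 95% interval from 0.903 to 1.74. The other Grin2a probe set, D13211_s_at, was left out as dim and read 23.4 and 14.2 in controls and 56.5 and 24.1 after KCl, all within background.

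Grin2b had 1 probe set, U11419_at, which read 340 and 305 in controls and 336 and 346 after KCl. The groups overlapped, since control 1 lay between the KCl arrays. The log2 change was 0.08 ± 0.16 (limma adjusted p = 0.78), the smallest SE of the 12. The ratio was 1.06 with a 95% interval from 0.824 to 1.36.

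The balance of Grin2a to Grin2b was taken as the difference of their log2 intensities on each array. Probe sets differ in how strongly they bind, so the level of this difference has no meaning in transcripts and only its shift between groups is read. It was −0.84 and −0.95 in controls, against −0.53 and −0.77 after KCl. Both KCl arrays lay on the Grin2a side of both control arrays, and control 1 and KCl 2 differed by less than the control arrays did from each other. The mean shift toward Grin2a was 0.24 on the log2 scale, 1.18-fold, with SDs of 0.08 in controls and 0.17 after KCl (two-sided exact permutation p = 0.33, the smallest possible).

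Relative to the control mean, the Grin2a to Grin2b ratio was 1.29 on KCl 1 and 1.09 on KCl 2, and 1.04 and 0.961 on the control arrays. Leaving out 1 array at a time gave shifts between 0.12 (without KCl 1) and 0.36 (without KCl 2). With D13211_s_at in place of AF001423_at it was 0.93, which rests on values within background. With the mean over both Grin2a probe sets it was 0.59, which rests in part on the same values within background.

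**Figure D2:**
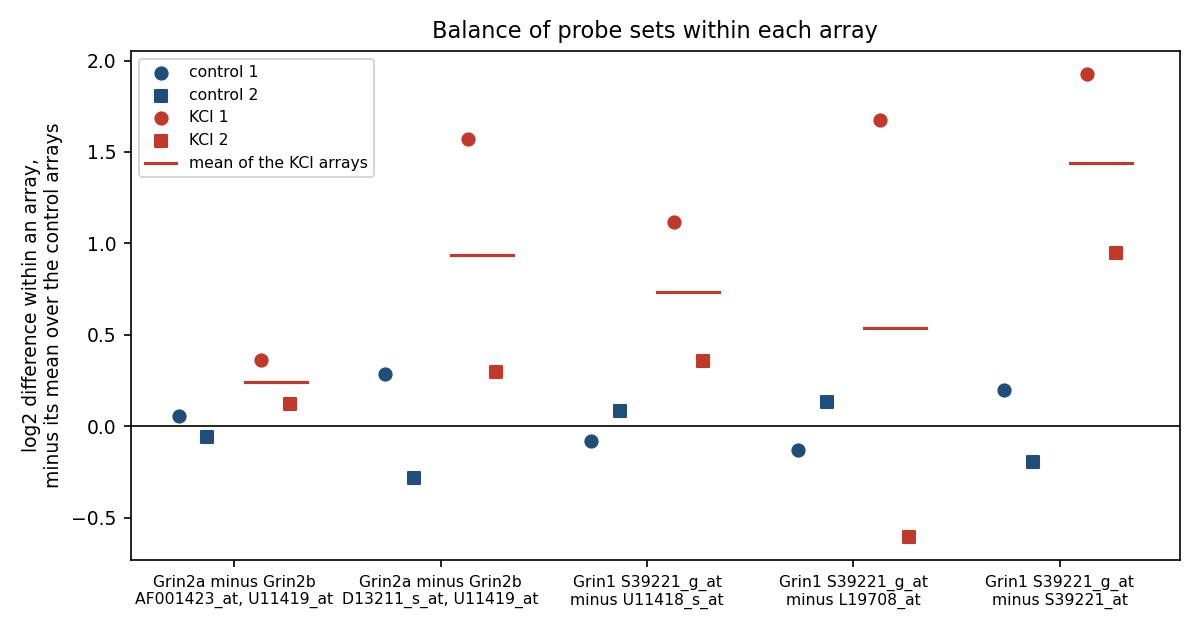
Difference in log2 intensity between 2 probe sets of the same array, after subtraction of its mean over the control arrays, for 2 Grin2a to Grin2b pairs and 3 Grin1 pairs, with a red line at the mean of the KCl arrays. KCl 1 is the highest point in each column, and for Grin1 S39221_g_at against L19708_at KCl 2 falls below both control arrays.

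Grin2c and Grin2d encode the GluN2 subunits whose receptors are less sensitive to magnesium block. Grin2c D13212_s_at varied little, with 161 and 166 in controls and 168 and 176 after KCl. Both KCl arrays lay above both control arrays, although by little (log2 change 0.07 ± 0.20; limma adjusted p = 0.86; ratio 1.05 with a 95% interval from 0.760 to 1.45). The other Grin2c probe set, U08259_r_at, read 23.9 and 127 in controls and 84.4 and 40.2 after KCl. Its control arrays differed 5.31-fold, the widest replicate gap among the 12, and its log2 change of 0.08 ± 0.76 (limma adjusted p = 0.96) turned negative without control 1 (−1.12) and without KCl 1 (−0.45).

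Grin2d was lower after KCl on both of its probe sets, and neither passed. U08260_at read 173 and 180 in controls and 127 and 153 after KCl, both KCl arrays lying below both control arrays. Its log2 change was −0.34 ± 0.22 (limma adjusted p = 0.38), a ratio 1.27-fold lower. D13213_s_at read 158 and 217 in controls and 165 and 161 after KCl, with control 2 apart from the other 3 arrays (log2 change −0.18 ± 0.23; limma adjusted p = 0.67). Without control 2 its log2 change was 0.05, so its direction rests on that array.

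Grin3a, which encodes the GluN3A subunit of young neurons, had 3 probe sets, and all their values lay above background. AF061945_at read 144 and 179 in controls and 232 and 204 after KCl, without overlap. Its log2 change of 0.44 ± 0.21 was the highest of the 12 tested and did not pass (limma adjusted p = 0.24; ratio 1.36 with a 95% interval from 0.967 to 1.90). AF061945_g_at, named for the same source sequence, read 146 and 139 in controls and 161 and 176 after KCl, again without overlap and with a log2 change of 0.24 ± 0.21 (limma adjusted p = 0.52).

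The brightest Grin3a probe set, U29873_at, did not follow them. It read 262 and 179 in controls and 233 and 191 after KCl, so that both KCl values fell between the control values. Its log2 change was −0.04 ± 0.24 (limma adjusted p = 0.94), and it was 0.23 without control 1 and 0.10 without KCl 2. The spread between replicates was ordinary for these arrays: the median ratio of the higher to the lower array was 1.17 in controls and 1.18 after KCl for the 12 probe sets, beside 1.16 and 1.16 over all tested.

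**Figure D3:**
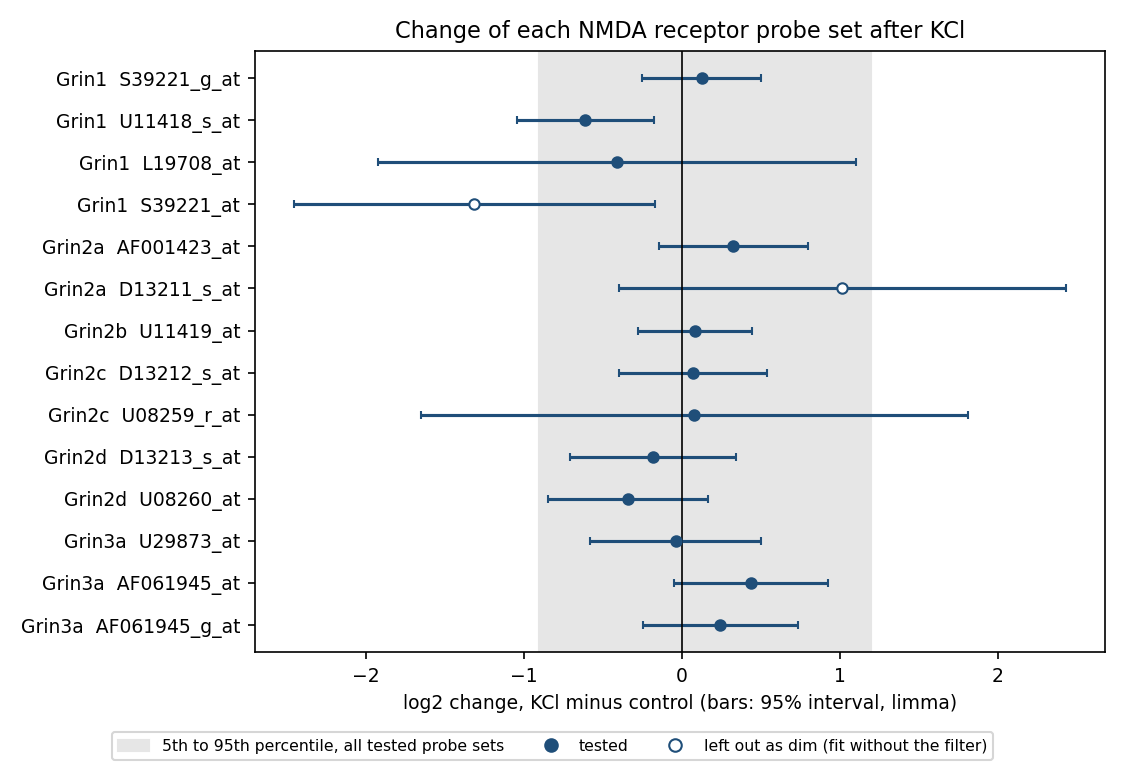
log2 change (KCl minus control) of the 14 NMDA receptor probe sets, with 95% intervals from limma, open points for the 2 left out of the test as dim, and a grey band from the 5th to the 95th percentile of all 947 tested probe sets (−0.90 to 1.20). The 12 filled points lie inside the band, and U11418_s_at is the only one of them whose interval does not include 0. The intervals are not adjusted for the number of tests, and 25.6% of all tested probe sets had an unadjusted limma p below 0.05.

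A list of 40 genes held those whose products bind or act with the NMDA receptor at the synapse, or carry its calcium signal. Of these, 16 were tested, 0 rose and 1 fell, where 10.2% of the 570 genes were called. The median log2 change was −0.19, beside −0.09 over all 570 genes with a tested probe set. In 10 of the 16 the groups did not overlap, against 59.1% of the 570 genes. KCl lay above control in 1 of the 16 (6.25%) and below in 9 (56.2%), against 21.8% and 37.4% of the 570 genes. The gene that fell was Ptk2b, which encodes the calcium-activated tyrosine kinase Pyk2, known to act on NMDA receptors through Src. It read 690 and 665 in controls and 382 and 486 after KCl, a 1.57-fold fall (log2 change −0.65 ± 0.16; limma adjusted p = 0.033), and its other probe set fell too, with a log2 change of −0.87 ± 0.19 (limma adjusted p = 0.025). The call on the brighter probe set held in 4 of 12 alternatives and that on the other in 6, and neither held without control 1 or without control 2, nor that on the brighter probe set without KCl 1.

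Among the partners that did not pass, Dlg3, which encodes the scaffold protein SAP102 that binds GluN2 tails, read 218 and 216 in controls and 130 and 145 after KCl (log2 change −0.66 ± 0.20; limma adjusted p = 0.080). Both KCl arrays lay below both controls. Camk2d, which encodes a subunit of the calcium- and calmodulin-dependent kinase II, had a log2 change of −0.36 ± 0.11 on its brightest probe set (limma adjusted p = 0.075). Its other tested probe sets, all dimmer, had log2 changes of −0.06, 0.36, −0.14 and −0.77 and did not pass. Prkca, a protein kinase C gene, had 1.29 ± 0.56 with only KCl 2 above background, and Calm3, a calmodulin gene, −0.21 ± 0.10. Among genes named after their values were seen, Dlg4, the gene of the main postsynaptic scaffold PSD-95, had −0.23 ± 0.11, and Camk2b, another kinase II subunit gene, had 0.03 ± 0.15. Also chosen in this way, 1 of the 3 probe sets of Prkcb, another protein kinase C gene, fell, with a log2 change of −0.45 ± 0.11 (limma adjusted p = 0.038).

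The AMPA and kainate receptor genes, which encode the other ionotropic glutamate receptors, were measured on the same arrays. Of 9 tested none passed in limma, against 10.2% of the 570 genes, and 5 had an unadjusted p below 0.05 in limma, against 25.4%. By an ordinary t statistic 1 of the 9 did, and the share of the 570 genes by that statistic is not given here. The groups overlapped in 1, and in the other 8 KCl lay below control, against 37.4% of the 570 genes. Of these 8, Grik1 lay within background on every array, and Gria4 exceeded background only on control 1. The median log2 change of these 9 was −0.42, beside −0.09. For the 6 NMDA receptor genes, each by its brightest tested probe set, the median was 0.08, 0 had an unadjusted p below 0.05 in limma, and the groups did not overlap in 2, against 59.1% of the 570 genes. In both KCl lay above control, as in 21.8% of the 570 genes. These counts depend on the probe set chosen for Grin1, which entered by S39221_g_at (log2 change 0.13). Its probe set U11418_s_at was brighter in controls, at 468 and 412 against 387 and 381, but not over all 4 arrays. It lay below control after KCl (log2 change −0.61, limma unadjusted p = 0.011) and is not counted here. Examples of the AMPA and kainate genes are the kainate receptor gene Grik2, at 129 and 185 in controls and 86.6 and 81.4 after KCl (log2 change −0.88 ± 0.28; limma adjusted p = 0.089), and the AMPA receptor gene Gria1, with −0.50 ± 0.15 (limma adjusted p = 0.071). The difference between the 2 families was not tested.

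**Figure D4:**
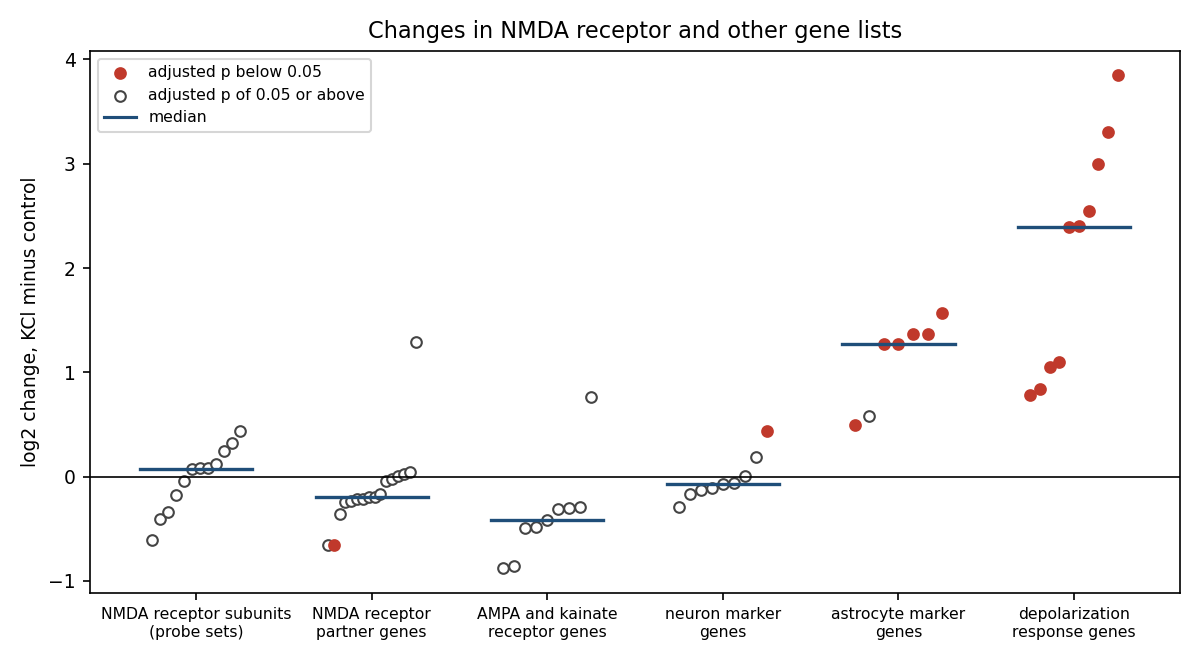
log2 change (KCl minus control) of the 12 tested NMDA receptor probe sets and of the tested genes of 5 lists, each gene by its brightest probe set, ordered by value within a list, with filled points at a limma adjusted p below 0.05 and a blue line at the median. The NMDA receptor points spread around 0, 8 of 9 AMPA and kainate points lie below 0, and all 10 depolarization response genes rose.

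The genes whose pattern over the 4 arrays lay nearest to each subunit gene were found by the distance between log2 intensities centred on each probe set's mean. With 4 arrays this is a description of likeness and carries no test. Nearest to Grin1 (S39221_g_at) were Scn3a, Igf1r and Pgap2, at distances of 0.08 to 0.11, where the median distance to all others was 0.59. Scn3a, a sodium channel gene, read 215, 198, 258 and 197 on control 1, control 2, KCl 1 and KCl 2, the same single high value on KCl 1 as Grin1. Nearest to Grin2a were Clcn3, Maob and Syt4 (0.08 to 0.12, median 0.68). Clcn3, a chloride transporter gene, read 980 and 797 in controls and 1257 and 1031 after KCl.

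Nearest to Grin2b were Agtr1a, Gfra2 and Foxm1 (0.03 to 0.05, median 0.51), and to Grin2c (D13212_s_at) Rara, Capns1 and Ncam1 (0.02 to 0.05, median 0.51). Nearest to Grin2d (D13213_s_at) were Tubb5, Psen2 and Mapk14 (0.06 to 0.07, median 0.60), which shared its single high value on control 2. Tubb5, a tubulin gene, read 20831 and 27729 in controls and 20694 and 20770 after KCl. Nearest to Grin3a (U29873_at) were Kcnj5, Gabbr1 and Tgfb3 (0.03 to 0.12, median 0.65). The Kcnj5 probe set lay within background on all 4 arrays.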

How the data were processed

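Per the labels' protocols, biotin-labelled cRNA made from 5 µg of total RNA was hybridized to 1-colour Affymetrix arrays. The authors deposited linear intensities, 1 per probe set. The sources used here do not name the summary algorithm, software or scaling target, but the 2% trimmed means of the arrays lay between 502.0 and 502.4, so values were used as deposited and taken to log2. The 59 Affymetrix controls were left out, and then the 316 probe sets (25%) with a mean of up to 33.3. The other 947 were fitted with limma 3.58.1 in R 4.3.3 (lmFit, eBayes with intensity trend), KCl against control, two-sided, adjusted by the Benjamini-Hochberg method. The fit was tested on simulated data. Errors are moderated SEs. Differences between probe sets were tested by exact permutation of the 4 arrays. The number of arrays limits the precision.

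Members and lists were chosen with earlier results of these data known. Named were all member probe sets, list members that passed or had the smallest p, and the 3 nearest genes by pattern. Genes in lists entered by their brightest probe set. The alternatives were quantile normalization, median centring, a pseudocount of 16, no filter or a stricter one (40%), no trend, an ordinary t statistic, a replicate block, each array left out, and a threshold of 0.1. Same-numbered arrays did not deviate together (r = −0.03).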

Additional observations from a re-analysis of the deposited data

How the results depend on the processing

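The count of NMDA receptor probe sets that passed was 0 under all alternatives but 2, where it was 1 (Grin1 U11418_s_at): without KCl 2, and with a threshold of 0.1 on the adjusted p. Leaving out each array gave 0 to 1. For the partner genes the count was 1 in the main fit, 0 with quantile normalization, without the filter, without the trend, with an ordinary t statistic and with the replicate block, 0 to 2 with each array left out, and 3 (Camk2d, Dlg3 and Ptk2b) at the threshold of 0.1. With the replicate block 50 of 947 probe sets passed, beside 102, and 0 of the 12. Same-numbered arrays did not deviate together, which does not settle whether they were paired. Over all probe sets 77 passed with quantile normalization, 79 without the filter, 21 without the trend, 0 with an ordinary t statistic, 150 at the threshold of 0.1, and 11 to 178 with an array left out. The shift of the Grin2a to Grin2b balance, 0.24, was 0.93 with Grin2a probe set D13211_s_at, 0.59 with the mean over probe sets, and 0.12 to 0.36 with each array left out. Both 0.93 and 0.59 draw on values of D13211_s_at, which were all within background. The shift of S39221_g_at against L19708_at was −0.61 to 1.68 with each array left out, and that against S39221_at 0.95 to 1.93. The log2 change of 1 member turned with the pseudocount (Grin2c U08259_r_at, −0.0080), and others turned when an array was left out: Grin1 S39221_g_at ran from −0.037 to 0.29, L19708_at from −1.39 to 0.57, U08259_r_at from −1.12 to 1.29, Grin2d D13213_s_at from −0.41 to 0.051, and Grin3a U29873_at from −0.31 to 0.23. The causes were not tested. No direction turned with quantile normalization or median centring.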
